A study of Rattus norvegicus with 3 samples.

Results

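Histone deacetylases remove acetyl groups from lysines of histone tails and of other proteins, and thereby oppose the acetyltransferases. The class I enzymes, HDAC1, HDAC2, HDAC3 and HDAC8, are mostly nuclear, and all but HDAC8 act inside large corepressor complexes such as SIN3, NuRD, CoREST and NCoR. The class IIa enzymes, HDAC4, HDAC5, HDAC7 and HDAC9, shuttle between nucleus and cytoplasm and repress MEF2 transcription factors. HDAC6, a class IIb enzyme, deacetylates tubulin in the cytoplasm, and HDAC11 is the only class IV enzyme.

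The mRNAs of these enzymes were measured in rat iPS F65, an induced pluripotent stem cell line, against mix1, which pools cultured bone marrow cells with primary fibroblasts of the ear, both from rats. Probes were taken by gene name or older alias, which gave 22 probes of 10 genes among 41012 probes of 35508 gene names on the array. Total RNA of 3 samples of untreated iPS F65, numbered 1 to 3, was labelled with Cy3, and mix1 was labelled with Cy5 on each of the 3 arrays. The iPS F65 cells grew on a layer of irradiated mouse embryonic fibroblasts, and the part of mouse RNA in their signal was not tested. The labels used here give no age or sex of the animals, no reprogramming factors and no proportion of the cell types in mix1. F65 is 1 line, and the labels do not say that its samples came from separate cultures, so the p-values measure only the spread between these samples. The mix1 RNA counts as 1 control sample, whose own spread is left out. Every array had the same dye orientation, so a dye effect and a difference between the cells cannot be told apart.

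Each array had 43379 gene spots, of which 57.1% to 61.2% were well above background in Cy3 and 58.3% to 62.1% in Cy5, and the small number of arrays limits the precision. Among 12 fibroblast markers, each was called lower in iPS F65, and so were 10 of 11 tested myeloid markers. Of 14 listed pluripotency markers 10 had a probe and 8 were tested, while Esrrb and Fgf4 did not pass the filter. Among the 8 tested, 7 were called higher and Lin28a, at -0.17, was not. Pou5f1 and Epcam had no Cy5 signal well above background on any array. Sox2 had a log2 ratio of 3.14 ± 0.40 (SD, n = 3). Over the fibroblast markers the summed signal was 8756 to 11986 in Cy3 against 2089710 to 2690870 in Cy5, with 10 of the 12 above background in Cy3 on every array. The summed signal of the myeloid markers was 4098 to 5185 in Cy3 against 266234 to 309601 in Cy5. The part of these cell types in the results below was not tested.

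Values are log2 ratios of processed signal, iPS F65 over mix1, listed for the arrays of replicates 1, 2 and 3 in that order, so a value above 0 means more signal in iPS F65. A gene was called higher or lower at an adjusted p under 0.05 (limma, Benjamini-Hochberg over the 21802 genes tested) and at least a 2-fold difference. Of the 10 deacetylases 1 was called higher, beside 30.9% of all genes tested, and 2 were called lower, beside 24.5%. In either direction that is 3 of 10, against 55.4% of all genes. Hdac4 counts as not called through its brightest probe, which lies on the strand opposite to the gene. With such probes left out, a choice made after seeing the data, 2 members were called higher, beside 6628 of 21353 genes. With normexp background correction and loess in place of the processed signals, 3983 of all genes were called higher and 5695 lower, against 6733 and 5338. The called members were Hdac9, which was higher in iPS F65, and Hdac5 and Hdac7, which were lower, and all belong to class IIa. None of the 4 class I genes was called, and their ratios lay between -0.06 and 0.46. At an unadjusted p under 0.05 (limma), with no limit on size, 1 of them lay above 0 and 1 below, beside 54.4% and 41.2% of all genes, a share to set beside each such count. In RNA of whole samples, fewer cells that express a gene and less of its RNA per cell cannot be told apart.

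The sequences of a few probes discussed below are shown first, 5′ to 3′, as the array design gives them. Strand was read from the order of the probe's coordinates in the files, a reading the sources used here do not state. The first pair lies 1 base apart in Hdac4 on opposite strands, the second pair lies 1 base apart in Hdac5 on opposite strands, and the last sequences belong to a second probe of Hdac7 and to the Hdac2 probe whose ratio stands apart from that gene's others.
Hdac4 A_44_P463888, on the gene's strand: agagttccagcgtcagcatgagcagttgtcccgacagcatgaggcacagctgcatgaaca
Hdac4 A_44_P306560, on the opposite strand: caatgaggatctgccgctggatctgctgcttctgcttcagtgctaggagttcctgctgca
Hdac5 A_44_P339659, on the gene's strand: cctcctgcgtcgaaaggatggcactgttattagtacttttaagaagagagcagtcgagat
Hdac5 A_44_P473020, on the opposite strand: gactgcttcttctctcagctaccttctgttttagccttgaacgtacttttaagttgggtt
Hdac7 A_44_P109778, on the gene's strand: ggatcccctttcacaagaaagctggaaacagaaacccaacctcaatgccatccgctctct
Hdac2 A_44_P314206, on the gene's strand: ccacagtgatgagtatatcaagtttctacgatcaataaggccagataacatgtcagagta

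The class I genes come first. Hdac1 and Hdac2 encode the closely related catalytic subunits of the SIN3, NuRD and CoREST complexes. The single Hdac1 probe (chr5:148683965-148684326, coordinates of all probes on the build rn3 named in the scanner files' header) gave -0.03, 0.01 and 0.02, a mean of 0.00 ± 0.03 (SD, n = 3). The Cy3 signals were 19080, 22226 and 21999 and the Cy5 signals 19438, 22044 and 21623, so the channels overlapped. Hdac1 did not pass the threshold (limma, adjusted p = 0.869), and the 95% interval of its log2 ratio ran from -0.05 to 0.06. RefSeq lists 18 Hdac1 pseudogenes in the rat, and whether the probe also binds transcripts of such copies was not tested.

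Hdac2 was read by 3 probes that gave different values. The brightest (chr20:41209043-41209102) gave 0.45, 0.47 and 0.46, a mean of 0.46 ± 0.01 (SD, n = 3; limma, adjusted p = 7.66e-05). Its Cy3 signals, 55701, 64774 and 63323 all lay above its Cy5 signals, 40817, 46688 and 45926. This is a 1.38-fold difference, larger than the spread between arrays but under the 2-fold needed for a call.
The probe A_44_P314206 shown above (chr20:41194007-41194066) lies 14976 bases from it on the same strand and gave 1.80, 1.64 and 1.83. Its mean of 1.76 ± 0.10 (SD, n = 3; limma, adjusted p = 5.19e-05) was called higher, a 3.38-fold difference. All its Cy3 signals, 1696 to 2037, exceeded all its Cy5 signals, 487 to 653. On the opposite strand, the third probe (chr20:41208994-41209053) overlaps the brightest by 11 bases and gave 0.22 ± 0.08 (SD, n = 3). Thus both Hdac2 probes on the gene's strand lay above 0, and whether Hdac2 was called depended on the probe. The probe on the opposite strand was at -0.07 under normexp and loess.

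Hdac3, the catalytic subunit of the NCoR complexes, had 2 probes with values near 0. The brighter one (chr18:30884152-30884211) gave -0.07, -0.05 and -0.06, a mean of -0.06 ± 0.01 (SD, n = 3; limma, adjusted p = 0.0208). With this small spread the difference passed the p threshold at a 1.04-fold size. The other probe, 4297 bases away, gave 0.24, 0.32 and 0.28, a mean of 0.28 ± 0.04 (SD, n = 3), so the sign differed between the probes.

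Hdac8, a class I enzyme that works without a large complex, showed the same kind of spread. Its brighter probe gave -0.07, -0.01 and -0.00, a mean of -0.03 ± 0.04 (SD, n = 3; limma, adjusted p = 0.302) with a 95% interval from -0.09 to 0.04. Its second probe gave 0.40, 0.51 and 0.39, a mean of 0.43 ± 0.07 (SD, n = 3), 1.35-fold. No probe of Hdac3 or Hdac8 was called, and the probes of each gene disagreed in sign.

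**Figure D1:**
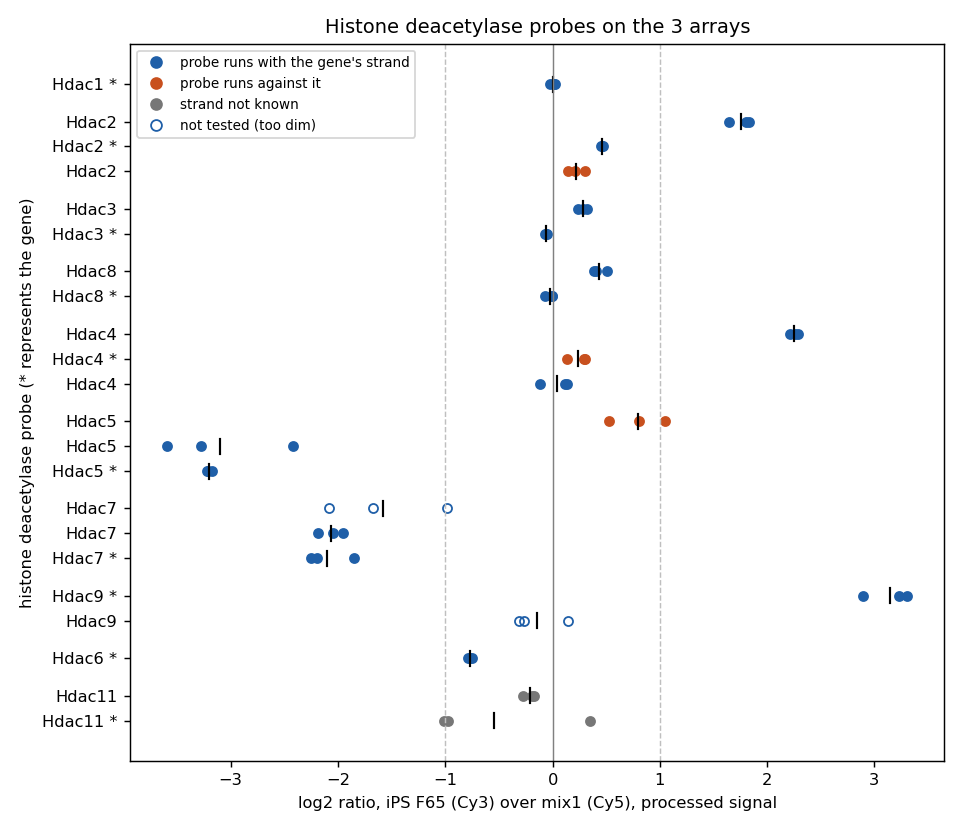
Log2 ratio of iPS F65 (Cy3) over mix1 (Cy5) at each of the 22 histone deacetylase probes, with 1 point per array, a black bar at the mean and dashed lines at 2-fold. Class I probes lie near 0 apart from the Hdac2 probe at 1.76, while the class IIa probes spread from -3.20 to 3.15.

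Class IIa held the members that differed most between the cells, in both directions. Hdac5, whose protein is exported from the nucleus when calcium-dependent kinases phosphorylate it, was the lowest of the 10. At its brightest probe (chr10:91281773-91282241) the Cy3 signals were 711, 798 and 811 and the Cy5 signals 6631, 7381 and 7308. The channels did not overlap, and the ratios of -3.22, -3.21 and -3.17 gave a mean of -3.20 ± 0.03 (SD, n = 3; limma, adjusted p = 5.70e-06), a 9.19-fold lower signal in iPS F65. Among all genes tested, 9.49% had a lower or equal ratio.

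The pair of Hdac5 probes shown above lies 9394 bases from the brightest one. A_44_P339659 (chr10:91291636-91291695), on the gene's strand, gave -3.28, -3.59 and -2.42, a mean of -3.10 ± 0.61 (SD, n = 3; limma, adjusted p = 0.00136), and was called lower. Because no array had its Cy3 signal well above background, only a bound holds, at least 2.41-fold lower, taken against the lowest signal that was well above background on each array. Its neighbour A_44_P473020 (chr10:91291697-91291756), which carries the opposite strand, gave 0.80, 1.05 and 0.53, a mean of 0.79 ± 0.26 (SD, n = 3), and was not called. A_44_P339659 passed the filter through mix1 alone, so it adds no separate support, and the lower call of Hdac5 rests on its brightest probe. The probe on the other strand lay above 0 on every array, with Cy3 signals of 216 to 427 against Cy5 signals of 124 to 297. Averaging the 3 probes brings Hdac5 to -1.84, still called lower.

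Hdac7, known from blood vessel and lymphocyte development, was also lower in iPS F65. Its brightest probe (chr7:136577932-136577991) had Cy3 signals of 1216, 1907 and 1392 against Cy5 signals of 5783, 6891 and 6370. Each Cy3 value lay below each Cy5 value, and the ratios were -2.25, -1.85 and -2.19. The mean of -2.10 ± 0.21 (SD, n = 3; limma, adjusted p = 2.28e-04) is a 4.28-fold difference. The probe A_44_P109778 shown above (chr7:136580528-136580587), 2536 bases away, gave nearly the same: -1.95, -2.19 and -2.04, a mean of -2.06 ± 0.12 (SD, n = 3), also called lower. The remaining Hdac7 probe stayed near background in both channels and was not tested.

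Hdac9, which takes part in muscle and heart gene control with its class IIa relatives, was the only member called higher. Its probe (chr6:52680454-52680513) had Cy3 signals of 505, 645 and 620 against Cy5 signals of 53.8, 65.2 and 83.2, and the channels did not overlap. The ratios of 3.23, 3.31 and 2.90 gave a mean of 3.15 ± 0.22 (SD, n = 3; limma, adjusted p = 8.11e-05), or 8.85-fold. Only 1 of the 3 arrays had a Cy5 signal well above background, so the size rests on a dim mix1 signal. With normexp background correction and loess the mean was 1.93, still called higher. The other Hdac9 probe, 258172 bases away, stayed near background in both channels, so the higher call rests on 1 probe. Where both channels had to be above background on every array, Hdac9 was not tested and no member was called higher.

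Among tested probes on the gene's own strand, those of Hdac4 disagreed most. Its probe on chr9:91352407-91352466 gave 2.29, 2.21 and 2.26, a mean of 2.25 ± 0.04 (SD, n = 3; limma, adjusted p = 7.45e-06), and was called higher at 4.77-fold, with Cy3 signals of 404 to 526 against Cy5 signals of 82.9 to 113. The probe A_44_P463888 shown above (chr9:91447630-91447689), 95163 bases away on the same strand, gave 0.12, 0.13 and -0.11, a mean of 0.05 ± 0.14 (SD, n = 3; limma, adjusted p = 0.530). Its channels overlapped, at 179 to 214 in Cy3 and 165 to 225 in Cy5.
Next to it, A_44_P306560 (chr9:91447691-91447750) carries the opposite strand and gave 0.14, 0.30 and 0.29, a mean of 0.24 ± 0.09 (SD, n = 3; limma, adjusted p = 0.0112). It was the brightest Hdac4 probe and therefore represents the gene, which was not called. With the probes of opposite strand left out, a choice made after seeing the data, Hdac4 would be represented by the probe at 2.25 and called higher.

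**Figure D2:**
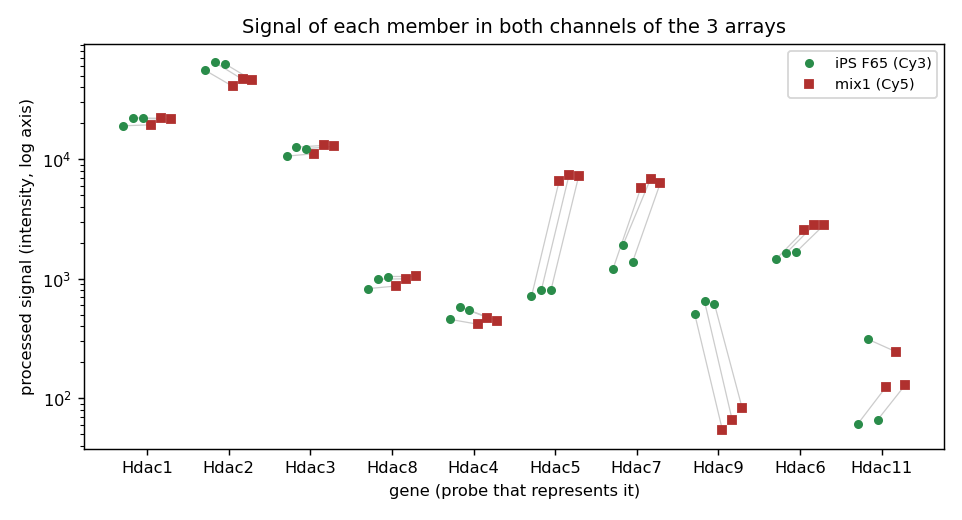
Processed signal (log axis, arbitrary intensity units) of the probe that represents each member in iPS F65 (green circles) and mix1 (red squares), with a line joining the channels of each array. The channels lie apart for Hdac5, Hdac7 and Hdac9 and nearly coincide for Hdac1, Hdac3 and Hdac8. Heights are not comparable between genes, since each probe binds with its own strength.

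Hdac6, the tubulin and cortactin deacetylase, had 1 probe (chrX:26659278-26659455) with Cy3 signals of 1468, 1642 and 1670 and Cy5 signals of 2537, 2808 and 2806. The channels did not overlap, and the ratios of -0.79, -0.77 and -0.75 gave a mean of -0.77 ± 0.02 (SD, n = 3; limma, adjusted p = 2.99e-05). The 1.71-fold lower signal stayed under the 2-fold needed for a call, while with loess the mean was -1.16 and Hdac6 was called lower. Hdac10, the other class IIb enzyme, is not among the 10 members and had a log2 ratio of 0.56 ± 0.02 (SD, n = 3), opposite in sign to Hdac6.

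Hdac11 was the least certain member. At its brighter probe (chr4:125580974-125581984) the ratios were -1.01, 0.35 and -0.98, so that replicate 2 stood apart in sign from replicates 1 and 3. There the Cy3 signal was 312, against 61.2 and 65.9 on the other arrays, and it was well above background on that array only. The Cy5 signal of mix1 was also highest there, at 245 against 123 and 130, and the cause was not tested. The mean of -0.55 ± 0.77 (SD, n = 3; limma, adjusted p = 0.219) had a 95% interval from -1.64 to 0.54, which includes a 2-fold lower signal, and without replicate 2 the mean was -0.99. Its second probe (chr4:125582549-125585457) gave -0.28, -0.17 and -0.19, a mean of -0.21 ± 0.06 (SD, n = 3; limma, adjusted p = 0.00488), with all signals of both channels well above background. The strand of Hdac11 relative to its probes is not known from the tables used here.

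From high to low, the representing probes ran Hdac9, Hdac2, Hdac4, Hdac1, Hdac8, Hdac3, Hdac11, Hdac6, Hdac7 and Hdac5. The array values of Hdac1 and Hdac8 overlapped, as did those of Hdac8 and Hdac3, of Hdac3 and Hdac11, and of Hdac11 and Hdac6. Within each array Hdac1 still lay above Hdac8, while the order of the other overlapping neighbours differed between arrays. Hdac9 lay above Hdac2, and Hdac7 above Hdac5, on every array. The median of the 10 members was -0.04, beside 0.25 over all genes tested. For 6 members the 95% interval lay within 2-fold in either direction, among them Hdac4 through its probe on the opposite strand. By adjusted p alone 7 members passed, beside 95.5% of all genes tested.

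Of the 22 probes 20 were tested, and 3 were called higher and 4 lower. Counted by gene rather than by probe, the shares over all genes tested were 30.9% and 24.5%. The lower call of the Hdac5 probe A_44_P339659 leaves only a bound, since no array had its Cy3 signal well above background. Of 7 members with at least 2 tested probes, Hdac2, Hdac4 and Hdac5 had probes that differed in call. Counting only probes on the gene's strand, the range between probes of a gene was over 1 on the log2 scale for 2 of 6 members, Hdac2 and Hdac4. The Hdac5 range of 0.10 includes A_44_P339659, which passed the filter through mix1 alone, so it does not measure agreement. Under normexp and loess the 2 Hdac5 probes on the gene's strand were at -1.36 and -3.53. Across all 2230 genes with at least 2 such probes the median range was 0.51, and 23.4% had a range over 1. None of the 3 probes on the opposite strand was called. All 3 lay above 0 at an adjusted p under 0.05 (limma), as did 11859 of the 21802 genes tested. Probes on the opposite strand made up 5.14% of all tested probes whose strand could be compared with RefSeq.

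**Figure D3:**
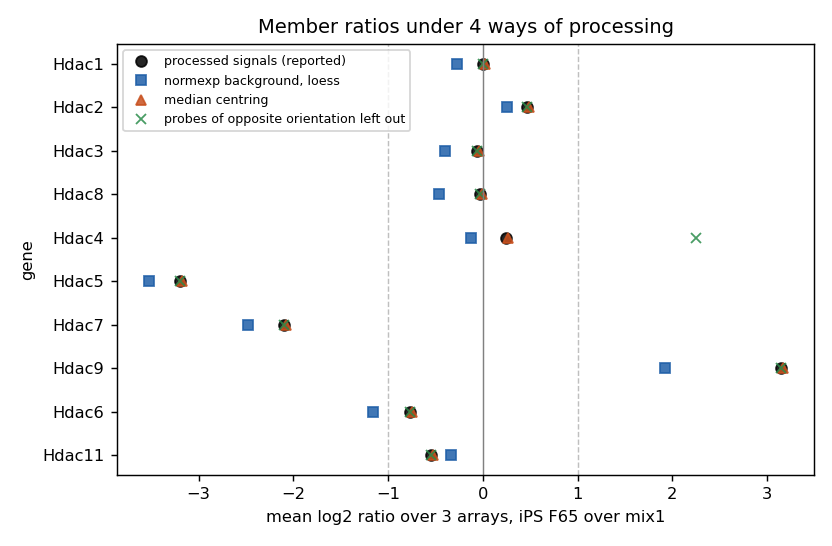
Mean log2 ratio of each member over the 3 arrays under 4 ways of processing, with dashed lines at 2-fold. Hdac5 and Hdac7 stay below -1 and Hdac9 above 1 in each, Hdac6 passes -1 with loess, and Hdac4 moves from 0.24 to 2.25 when probes on the opposite strand are left out.

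Normexp with loess, which changes background and normalization together, moved most members down. The median of all genes tested was 0.25 with processed signals and -0.08 with normexp and loess, so a ratio near 0 has no firm sign. Of the 10 members 9 had a lower ratio, with Hdac9 the most moved, from 3.15 to 1.93, while Hdac11 went from -0.55 to -0.34. Hdac1 was at -0.27, Hdac4 at -0.13, Hdac2 at 0.26, Hdac3 at -0.40 and Hdac8 at -0.46. The calls under loess were Hdac9 higher and Hdac5, Hdac6 and Hdac7 lower.

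The genes that work with the deacetylases were counted next. Of 98 such genes listed by function 90 had a probe and 88 were tested: 18 (20.5%) were called higher and 9 (10.2%) lower, beside the 30.9% and 24.5% of all genes. Their median was 0.41, beside 0.25. With loess the counts were 8 higher and 12 lower and the median 0.07, and with median centring the counts were 19 and 9. The shares of 30.9% and 24.5% are also to be set beside the counts of each list below.

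The subunits that hold class I enzymes in their complexes were mostly within 2-fold. In the SIN3 list 3 of 13 tested genes were called higher and none lower, and the list's median was 0.79. At an unadjusted p under 0.05 (limma), 11 lay above 0 and 2 below, where nearly all genes tested pass in one direction or the other. They were Sin3a, the scaffold of the complex, at 1.04 ± 0.02 (SD, n = 3), Ing1, which binds methylated histone H3, at 1.43, and Rbbp7, a histone chaperone shared with NuRD, at 1.23 ± 0.02 (SD, n = 3). Under loess only Rbbp7 kept its call, at 1.01, while Sin3a was at 0.60 and Ing1 at 0.94. Rbbp4, a close relative of Rbbp7, was at 0.88 and was not called.

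In NuRD, which joins a deacetylase to a nucleosome remodeller, 2 of 11 genes were called higher and 1 lower, against 1 and 1 under loess. The calls were Rbbp7, the scaffold gene Gatad2a at 1.23 and the methyl-DNA-binding gene Mbd2 at -1.07. Gatad2a was at 0.71 under loess. The remodeller Chd4 was at -0.21 ± 0.03 (SD, n = 3), while its other tested probes reached 0.77 to 0.86, and Chd3 was at -0.94 ± 0.09 (SD, n = 3). Mta1, Mta2 and Mta3, alternative subunits of NuRD, were at 0.29, 0.61 and 0.78, and Mbd3 was at -0.29. None of these was called.

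CoREST joins HDAC1 or HDAC2 to the histone demethylase KDM1A, and 3 of its 7 tested genes were called higher and 1 lower, against 1 and 1 under loess. Rcor2, the CoREST scaffold known from pluripotent cells, was at 1.87 ± 0.03 (SD, n = 3), 3.65-fold, and kept its call under loess at 1.54. Kdm1a was called at 1.11 ± 0.03 (SD, n = 3) and was at 0.79 under loess. Gse1 was called lower at -1.95. The scaffold Rcor1 was at 0.22, with other probes from -0.07 to 0.90.

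None of the 5 genes of the NCoR list was called, while at an unadjusted p under 0.05 (limma) 4 lay above 0 and 1 below. The list's median was 0.18, and -0.25 under loess. Ncor1 was at 0.99 ± 0.03 (SD, n = 3), just under 2-fold and called higher with median centring, and its other tested probes ran from -0.08 to 1.92. Dnttip1, the scaffold of the mitotic deacetylase complex, was at 0.69 and was not called. The names Sin3b and Mef2c were on no probe, and these genes were not analysed here.

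Among partners of the class IIa enzymes 1 of 14 tested genes was called higher and 3 lower, with a median of -0.24. Under loess the counts were 0 and 5. Mef2a, a transcription factor that these enzymes bind, was lower at -1.27 ± 0.03 (SD, n = 3), and Mef2d was at -0.40 ± 0.17 (SD, n = 3). The kinase genes Camk1 and Prkd2, whose products phosphorylate class IIa enzymes, were lower at -2.19 and -1.26. Camk4, a related kinase gene, was called higher at 1.27, but no array had its Cy5 signal well above background, which leaves at least a 1.31-fold difference, and under loess it was at 0.40. Of the 8 genes related to HDAC6, 2 were called lower, against 3 under loess. With processed signals they were Sqstm1, an autophagy receptor, at -3.72 and Cttn, which encodes the HDAC6 substrate cortactin, at -1.59. Other tested Sqstm1 probes ran from -3.65 to -1.18, while the other Cttn probe was at -0.55, under 2-fold.

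**Figure D4:**
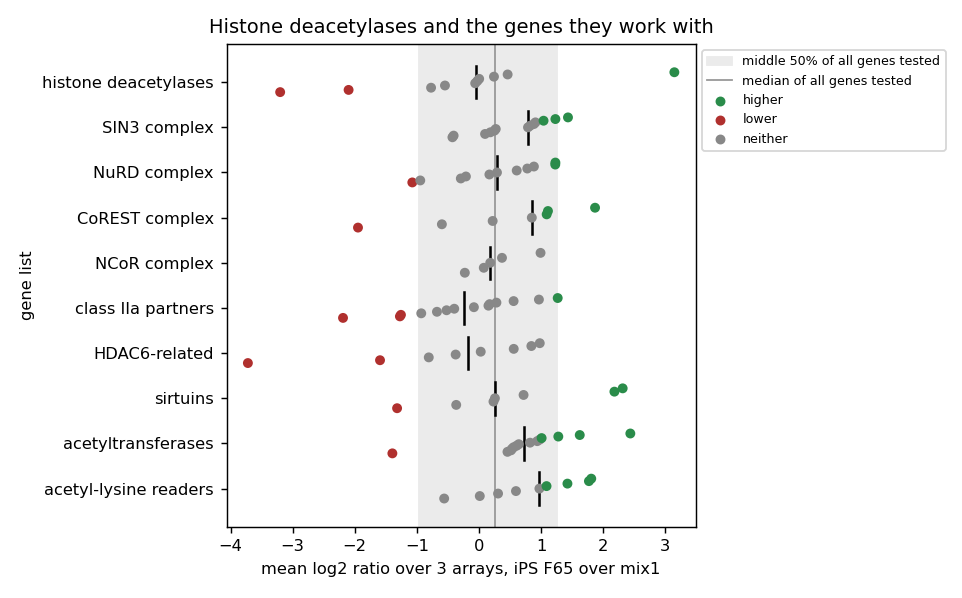
Mean log2 ratio over the 3 arrays of each deacetylase and of the genes listed with them, with 1 point per gene, coloured by call, a black bar at each list's median, and the interquartile range of all genes tested in grey. Of the 10 deacetylases 7 lie within 2-fold, Hdac5 and Hdac7 lie to the left and Hdac9 to the right. Hdac4 is among the 7 through a probe on the opposite strand.

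The enzymes that share or oppose this reaction were read the same way. Of the 7 sirtuins, deacetylases that depend on NAD, Sirt1 and Sirt5 were called higher at 2.31 ± 0.05 and 2.18 ± 0.05 (SD, n = 3) and Sirt2, which like HDAC6 deacetylates tubulin, lower at -1.32 ± 0.02 (SD, n = 3). The single Sirt1 probe lies on the strand opposite to the gene. Of 14 tested acetyltransferases 4 were called higher and 1 lower, against 2 and 1 under loess, among them Hat1, which acetylates new histone H4, at 2.44 ± 0.04 (SD, n = 3), Kat2a at 1.62 and its relative Kat2b at -1.39. The representing Kat2b probe also lies on the opposite strand, and its other probes gave -1.60 to -1.10. Under loess 2 of the 9 readers of acetylated lysine were called higher. With processed signals 4 were called higher and none lower, beside 30.9% and 24.5% of all genes tested. At an unadjusted p under 0.05 (limma) 7 lay above 0 and 1 below. Brd9 was at 1.81 and Brd7 at 1.77.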

How the data were processed

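Per the labels, total RNA was hybridised to 2-colour Agilent arrays. Per the file headers, the authors' deposited intensity values came from Agilent Feature Extraction 9.5.3.1, which subtracted the background and balanced the dyes (linear and LOWESS) to give processed signals. The series matrix held deposited log2 values, which equalled the log2 ratios of those signals to within 3.11e-06. All 3 arrays lie on 1 slide, so no batch could be tested. Per-array medians over all probes were 0.00, -0.01 and -0.06.

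Control spots and outlier spots (204 to 213 per array) were left out, no spot was saturated, and replicate spots were averaged. Probes well above background on all 3 arrays in 1 channel were tested (25836 of 41012), and a gene was represented by its brightest tested probe. Probes were named through RefSeq by accession (10732), gene number (1222), symbol (5552) or older name (3724), and 19760 kept the file's name. Hdac7 and Hdac9 stood under older names. The exons that probes lie in were not analysed here. Strand was taken from the order of each probe's coordinates in the files, which is an assumption, and compared with RefSeq. It put 94.9% of the tested probes that could be compared on the gene's strand.

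Means were tested against 0 with limma 3.58.1 in R 4.3.3, with Benjamini-Hochberg adjustment over the 21802 genes tested. Adjusted p-values of a gene's other probes come from a separate limma fit of the same model to all tested probes, adjusted over those probes. The fit was tested on simulated data. Named genes are all members, the defining complex subunits, Mef2a, Mef2c and Mef2d, and the called genes with the 2 largest and 2 smallest ratios of each other list. A few named genes are not reported here. Hdac10 was added to complete its class. Members and lists were chosen with earlier results of these data known. Alternatives were normexp (offset 50) with loess, loess alone, median centring, the deposited matrix, other probe filters, the mean of a gene's probes, adjusted p alone, and each replicate left out.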

Additional observations from a re-analysis of the deposited data

How the results depend on the processing

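Of 119 comparisons of single members with an alternative, 104 kept direction and call. Some alternatives left the members' ratios the same or nearly so: the deposited matrix, no filter on dim probes, and adjusted p alone. The tally therefore does not measure how far the results withstand other processing. Hdac5 and Hdac7 stayed called lower under each alternative run, and Hdac9 stayed called higher wherever it was tested. The sign turned only for members near 0. Hdac1 was at -0.27 with loess, with or without background correction, and ran from -0.0075 to 0.018 without each replicate in turn. Hdac4 was at -0.13 with normexp and loess and at -0.12 with loess alone, and as means of their probes Hdac3 was at 0.11 and Hdac8 at 0.20. With probes above background in both channels on every array, 3231 genes were lower and 0 members higher, with Hdac9 not tested. Loess gave 3983 genes higher with normexp and 3979 without, 8 other genes of histone deacetylation higher in each, and a members' median of -0.37 in each. The mean of each gene's probes gave a members' median of 0.057. By adjusted p alone, 11859 genes were higher and 8966 lower, and 3 members higher and 4 lower. Of the other genes of histone deacetylation 59 were higher and 26 lower. Leaving out probes on the opposite strand, chosen after seeing the data, gave 2 members higher. Without each replicate in turn 1 member was higher and 2 lower. The causes were not tested. No paired analysis was possible because there is 1 group of arrays to compare by replicate number, and each ratio already sets iPS F65 against mix1 on the same array. Signal over background limits Hdac9 in mix1, Hdac11 in iPS F65 and 1 Hdac5 probe.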
